A study of Mus musculus with 12 samples.

Results

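Heatr3 and 5 genes of the 5S ribonucleoprotein particle (Rpl5, Rpl11, Rrs1, Rpf2 and Brix1) were followed through loss and re-expression of the splicing factor Puf60. The 6 genes were taken by name, from 52661 genes in the deposited expression table, together with all 86 of their events among the 401633 events of the deposited splicing table. Heatr3 was chosen by its measured level, as one of the strongest losses on knockdown with recovery on induction, so its levels and its splicing in those comparisons are given as a description, without a test. The cells were N2A, an established line from a mouse neuroblastoma, and polyadenylated RNA was sequenced. In the 2 stable lines doxycycline switches on a Flag-tagged, siRNA-resistant Puf60 cDNA, which holds exon 5 in the pEx5 line and lacks it in the mEx5 line. In each line there were 2 control libraries (non-targeting siRNA), 2 knockdown libraries (Puf60 siRNA at 15 nM) and 2 induced libraries (Puf60 siRNA with doxycycline at 2 µg/ml for 24 h), lettered A and B and harvested 48 h after transfection. Doxycycline was never given alongside the non-targeting siRNA, and the drug and the cDNA cannot be told apart. Each cDNA was carried by 1 line, so cDNA and line cannot be told apart in the induced libraries. The labels do not say that libraries A and B came from separate cultures, and p-values measure the spread between these libraries, which may be technical.

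The 5S particle consists of the 5S ribosomal RNA and the ribosomal proteins Rpl5 and Rpl11, and it forms before it joins the large ribosomal subunit in the nucleolus. HEATR3, the relative of yeast Syo1, escorts newly made Rpl5 and Rpl11 into the nucleus. Rpf2 and Rrs1 dock the particle on the precursor of the large subunit, and Brix1 is a relative of Rpf2 that acts at an early step of the same assembly line. A 5S particle that is not built into ribosomes can bind Mdm2 and stabilise p53. Puf60 is a splicing factor that binds pyrimidine-rich sequence near 3′ splice sites.

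Of the 86 member events 58 could be tested, and 1 of them, an exon of Heatr3, was called on knockdown. A call needs an adjusted p under 0.05 (limma) and a change of at least 10 PSI points. On knockdown 1.33% of all 167824 tested events met this. An exon of Rpf2 had the next largest change, −9.90 points, and was not called. PSI (percent spliced in) is the percentage of reads that hold the exon. Both are coding exons whose length is not a multiple of 3. They are shown with 20 bases of the flanking exons on either side, from the GENCODE M21 transcripts on mm10, and capitals mark the exon.
Heatr3 exon 12: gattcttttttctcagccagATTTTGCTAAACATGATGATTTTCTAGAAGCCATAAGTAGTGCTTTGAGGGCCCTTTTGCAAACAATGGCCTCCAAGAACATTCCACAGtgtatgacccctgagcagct
Rpf2 exon 3: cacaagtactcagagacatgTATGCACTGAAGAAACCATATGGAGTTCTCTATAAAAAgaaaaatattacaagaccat
The Heatr3 exon is exon 12 of 15 of the annotated transcript, 89 nt long, at chr8:88161878-88161966 on the plus strand, between introns of 3612 and 2921 nt. The Rpf2 exon is exon 3 of 10 of the principal annotated transcript, 38 nt long, at chr10:40243856-40243893 on the minus strand, between introns of 691 and 4068 nt. Event positions in the deposited splicing table are not on mm10. The exons were placed through intron lengths, which for all 14 Heatr3 introns and all 5 Rpf2 introns of that table equal an annotated intron and stand in the same order.

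Leaving out either exon shifts the reading frame and brings an early stop codon. The joined sequence is given from 20 bases before the new junction to that stop, which is in capitals.
Heatr3 without exon 12: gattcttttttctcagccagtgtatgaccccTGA
Rpf2 without exon 3: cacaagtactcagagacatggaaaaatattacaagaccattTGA
In Heatr3 the stop begins 11 nt after the junction, in exon 13, after 506 of the 679 codons of the full reading frame, and 307 nt before the last exon-exon junction. In Rpf2 it begins 21 nt after the junction, in exon 4, after 59 of 306 codons, and 523 nt before the last junction. These are properties of the annotated sequence. Neither RNA decay nor protein was measured here.

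Heatr3 mRNA fell steeply on knockdown in both lines, and induction brought it back close to control in the mEx5 line but not in the pEx5 line. Levels per library are exon-exon junction reads summed over the introns of a gene and scaled to CPM, a count relative to the scaled library total. In pEx5, Heatr3 stood at 188.9 and 193.1 in the control libraries, 50.3 and 48.0 in the knockdown libraries and 124.6 and 130.0 in the induced libraries. In mEx5 it stood at 200.6 and 187.1 in control, 60.4 and 57.1 after knockdown and 187.3 and 181.5 in induced libraries. Knockdown libraries did not overlap with any other group, and induced libraries overlapped with control in mEx5 only. In bulk libraries, fewer cells of a type and less RNA per cell cannot be told apart. Puf60 itself, the targeted gene, was at 297 to 322 in the control libraries, 58.4 to 75.2 in the knockdown libraries and 577 to 631 in the induced libraries, where reads of the cDNA and of the cell's own gene are counted together.

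**Figure D1:**
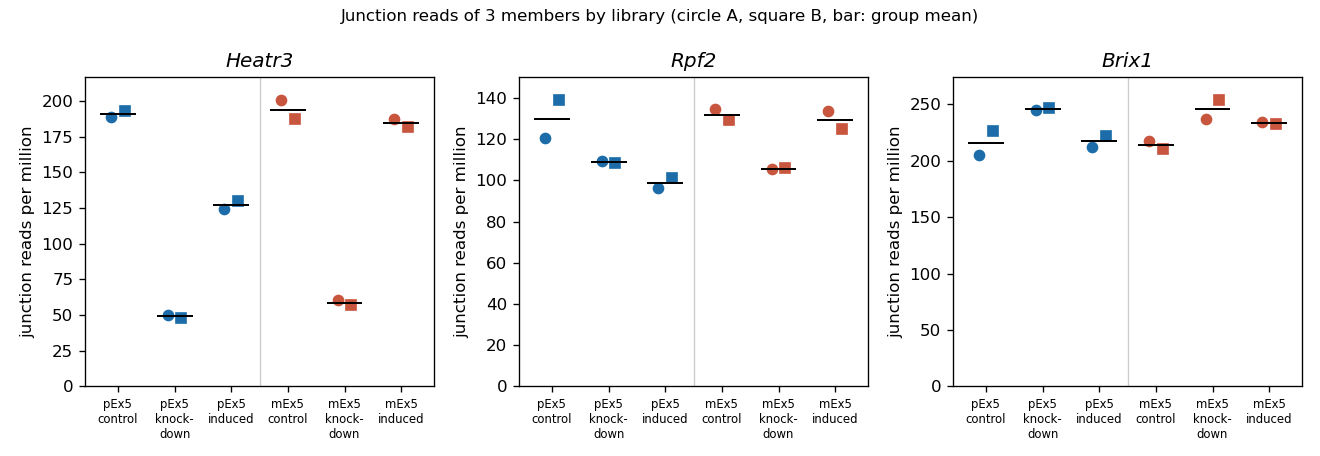
Junction CPM of Heatr3, Rpf2 and Brix1 (y axes from 0) in the 12 libraries by group (x axis), blue for pEx5 and red for mEx5, circles for A, squares for B, bars for group means. Heatr3 falls from 187 to 201 in control to 48 to 60 in knockdown libraries, and among induced libraries the pEx5 ones lie lower for Heatr3 and Rpf2.

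Averaged over both lines, the Heatr3 log2 change was −1.84 ± 0.04 (SE, 4 libraries against 4) on knockdown and 1.51 ± 0.04 on induction. It ranked 3 of 10363 genes by loss on knockdown, behind Puf60 and Vamp2 (−1.98) and just ahead of Ptbp2 (−1.82), and 9 by rise on induction. From the highest to the lowest, group means were 193.8 ± 9.6 in mEx5 control (SD, n = 2 here and below), 191 ± 3.0 in pEx5 control, 184.4 ± 4.1 in mEx5 induced, 127.3 ± 3.8 in pEx5 induced, 58.7 ± 2.3 in mEx5 knockdown and 49.1 ± 1.7 in pEx5 knockdown. The highest 3 groups do not differ beyond their spread, and the others are separate from their neighbours.

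The difference between induced lines is a comparison the choice of Heatr3 did not use. Heatr3 was lower in pEx5 than in mEx5 induced libraries by a log2 change of −0.53 ± 0.06 (limma, adjusted p = 7.37e-07), where 37.4% of all 10363 genes were called. Between control libraries the lines differed by −0.02 ± 0.06 (limma, adjusted p = 0.841), where 27.4% were called. In the authors' deposited table the same 2 comparisons gave −0.52 (FDR 7.284e-14) and 0.01 (FDR 0.9785), with 29.9% and 24.2% of its genes called. That table also called Heatr3 lower in pEx5 than in mEx5 knockdown libraries, by −0.25 (FDR 0.001755), with 25.9% of its genes called. The difference of the induction effects, which sets each line against its own knockdown libraries, was −0.28 ± 0.08 and missed the threshold (limma, adjusted p = 0.121). The knockdown effects differed by −0.24 ± 0.08 (limma, adjusted p = 0.623). Summed junction CPM of Puf60 were 618.2 and 631.4 in the pEx5 induced libraries and 622.8 and 577.2 in the mEx5 ones. These sums overlapped but are not like for like, because the mEx5 cDNA lacks an exon and cannot give reads over its junctions. They therefore do not show whether the induced lines had the same Puf60 level. Puf60 protein was not measured, and a part of Puf60 level in the Heatr3 difference was not tested.

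Inclusion of Heatr3 exon 12 moved with the mRNA. In pEx5 its PSI was 99.57 and 98.43 in control, 81.46 and 72.01 after knockdown and 95.88 and 95.84 in induced libraries. In mEx5 it was 99.6 and 97.74 in control, 85.13 and 85.49 after knockdown and 99.32 and 97.54 in induced libraries. Every knockdown library lay below every other library. The exact 95% binomial interval of the lowest library, 72.01 from 450 reads, runs from 67.6 to 76.1, and covers counting error only. The mean change was −17.81 points on knockdown and 16.12 on induction. A call needed an adjusted p under 0.05 and 10 points, which 1.33% of all tested events met on knockdown.

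**Figure D2:**
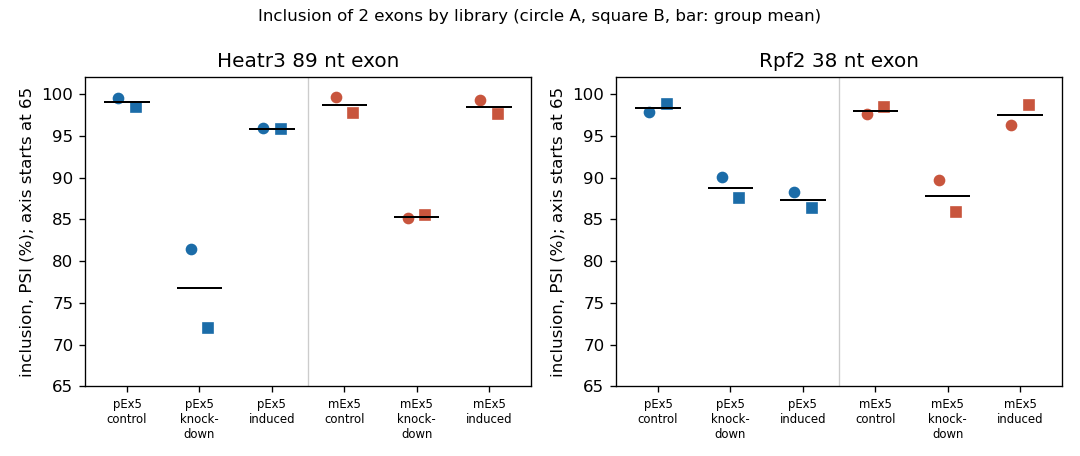
PSI in percent (y axis, from 65) of Heatr3 exon 12 (89 nt) and Rpf2 exon 3 (38 nt) in each library by group (x axis), colours and symbols as for the junction reads. Both exons drop in all 4 knockdown libraries, and the Rpf2 exon stays at 86.3 to 88.3 in the pEx5 induced libraries against 96.3 to 98.7 in the mEx5 ones.

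Reads that include exon 12 and reads that skip it did not change by the same amount. In CPM, inclusion went from 55.4 ± 0.1 in pEx5 control to 10.1 ± 1.8 after knockdown and 36.3 ± 1.9 in induced libraries. Skipping went from 0.561 ± 0.455 to 3.02 ± 0.60 and 1.57 ± 0.09. In mEx5, inclusion went from 55.2 ± 1.3 to 13.4 ± 1.4 and 54.1 ± 2.3, and skipping from 0.757 ± 0.763 to 2.30 ± 0.18 and 0.852 ± 0.666. The reads lost from the inclusion form were therefore many more than the reads gained by the skipping form.

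The loss ran along the whole transcript. Each of the 14 Heatr3 junctions fell on knockdown, by log2 ratios of −1.57 to −2.44 in pEx5 and −1.34 to −2.10 in mEx5. The 2 junctions of exon 12 had the lowest ratios of all, −2.24 and −2.44 in pEx5 and −1.94 and −2.10 in mEx5. Skipping of exon 12 takes reads from these 2 junctions, so their larger fall is not separate from the fall in PSI. These ratios of group means carry no spread. The other 12 junctions lay between −1.57 and −2.23 in pEx5 and between −1.34 and −1.91 in mEx5. With induction, all 14 stayed below control in pEx5, from −0.48 to −0.83, while in mEx5 they lay from −0.19 to 0.08.

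**Figure D3:**
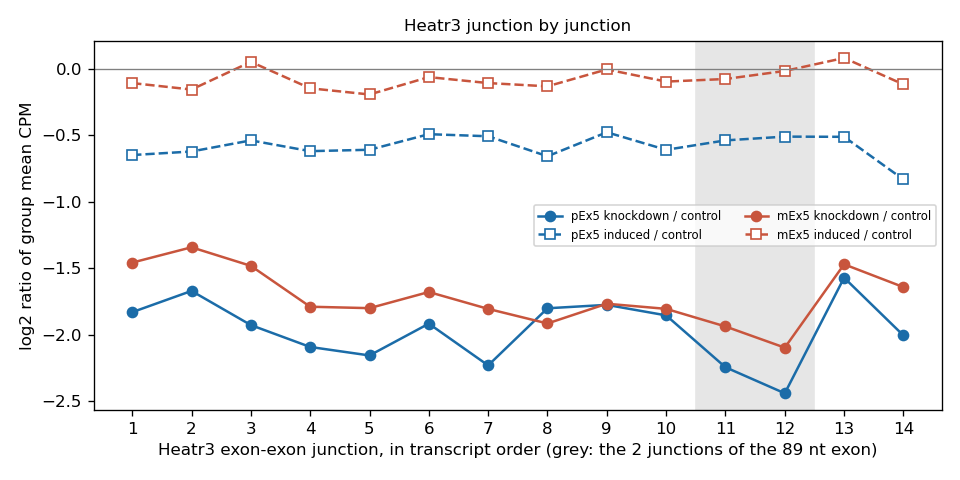
Log2 ratio of group mean junction CPM to the control of the same line (y axis) for the 14 Heatr3 junctions in transcript order (x axis), filled circles for knockdown and open squares for induced libraries, blue for pEx5 and red for mEx5. All junctions fall on knockdown, the shaded pair around exon 12 the most, and the pEx5 induced values stay between −0.48 and −0.83.

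The other Heatr3 events moved little. Of the 34 events in the table, 28 could be tested, which needs at least 10 reads in each library, a site other than the reference site and a PSI that is not the same everywhere. Besides exon 12, only the 2921 nt intron that follows it moved by 5 points or more. Its retention was 0.52 to 0.98 percent in the control, 3.69 to 10.6 in the knockdown and 0.56 to 2.81 in the induced libraries, from as few as 110 reads. The 3612 nt intron before exon 12 went from 0.62 to 1.4 percent in control libraries to 4.32 to 6.17 in knockdown libraries. In CPM the retained forms stayed rare. The following intron had 0.292 ± 0.141 in pEx5 knockdown against 0.094 ± 0.011 in control. In mEx5 it had 0.258 ± 0.125 against 0.155 ± 0.001. The intron before exon 12 had 0.188 ± 0.002 in pEx5 knockdown against 0.170 ± 0.082 in control, and 0.319 ± 0.021 in pEx5 induced libraries. In mEx5 it had 0.243 ± 0.018 after knockdown against 0.136 ± 0.020. Its spliced reads in pEx5 fell from 17.0 ± 1.3 in control to 3.73 ± 0.29 after knockdown. The authors' deposited splicing table called exon 12 and both introns on knockdown in each line, where it called 3.63% of all events it judged in pEx5 and 3.03% in mEx5. Heatr3 was chosen on the knockdown comparison, so these calls are a description and not a test. Between induced lines exon 12 differed by −2.57 points, which missed the threshold (limma, adjusted p = 0.728).

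Rpf2, which docks the 5S particle, fell slightly on knockdown and returned in the mEx5 induced libraries only. In pEx5 its junction CPM were 120.5 and 139.0 in control, 109.4 and 108.6 after knockdown and 96.6 and 101.0 in induced libraries. In mEx5 they were 134.6 and 129.2 in control, 105.5 and 106.1 after knockdown and 133.5 and 125.2 in induced libraries. Knockdown did not overlap with control, and the pEx5 induced libraries were the lowest of all 12.

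The log2 change of Rpf2 on knockdown was −0.28 ± 0.05 (limma, adjusted p = 3.31e-05, lower in 4 of 4 libraries). Rpf2 and Brix1 make 2 of 2 testable partners called on knockdown, in a comparison that called 51.8% of all genes, in which 26.6% were higher and 25.3% lower. On induction Rpf2 rose in mEx5 by 0.29 ± 0.06 (limma, adjusted p = 0.00237, with 25.6% of genes called), while its change in pEx5 was −0.14 ± 0.06 (limma, adjusted p = 0.123, with 22.0% called). The test of that difference gave −0.43 ± 0.09 (limma, adjusted p = 0.0279), a comparison that called 0.753% of genes. That call depends on the fit: it was lost without the mean-variance trend, a setting settled after first results were seen (adjusted p = 0.159), with stable junctions only (0.0637), and when either pEx5 knockdown or induced library, mEx5 knockdown A or mEx5 induced A was left out (up to 0.162). The direct comparison of induced libraries held throughout, at −0.39 ± 0.06 (limma, adjusted p = 9.94e-05) and 0.0047 without the trend. Control libraries of the lines differed by −0.03 ± 0.06 (limma, adjusted p = 0.806).

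Rpf2 exon 3 followed the same order. In pEx5 its PSI was 97.83 and 98.83 in control, 90.02 and 87.5 after knockdown and 88.32 and 86.32 in induced libraries. In mEx5 it was 97.56 and 98.45 in control, 89.73 and 85.83 after knockdown and 96.33 and 98.66 in induced libraries. Inclusion therefore did not return in the pEx5 induced libraries, which overlapped with knockdown, and did return in the mEx5 ones, which overlapped with control. Skipping reads in CPM were 0.502 ± 0.169, 3.05 ± 0.38 and 3.15 ± 0.22 in pEx5 control, knockdown and induced libraries, and 0.617 ± 0.207, 3.41 ± 0.57 and 0.828 ± 0.624 in mEx5. Annotated Rpf2 transcripts that skip exon 3 together with its neighbour are not counted by this event.

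On knockdown the exon changed by −9.90 points (limma, adjusted p = 0.00721), just short of the 10 points needed for a call, and leaving out single libraries moved this between −8.92 and −10.87 points. The induction effect differed between lines by −11.15 points. The test over all events did not call it (limma, adjusted p = 0.676), and called 0 of 167824 events in that comparison, with 9599 at an unadjusted p under 0.05. A limma fit that weights each value by its reads, over 22759 events with a mean PSI of 5 to 95, did call it (adjusted p = 0.0385), among 67 events or 0.294%. Without 1 library the weighted adjusted p ranged from 0.0378 to 0.145 and stayed under 0.05 in 5 of 12 cases: the call was lost without any 1 of the knockdown or induced libraries other than mEx5 knockdown A. It was also lost when the weighted fit took the replicate letter as a block (adjusted p = 0.0579). The direct comparison of induced libraries gave −10.17 points, with an adjusted p of 0.28 in the unweighted and 0.00277 in the weighted limma fit, which called 0.00179% and 2.99% of their events. The authors' deposited splicing table called this exon on knockdown in both lines, on induction in mEx5 but not in pEx5 (2.64% and 2.21% of events called), and between the induced lines, where it called 1.38% of the events it judged.

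Brix1 rose slightly on knockdown. In pEx5 its control libraries had 204.7 and 225.8 CPM, its knockdown libraries 244.5 and 246.6, and its induced libraries 212.3 and 222.1. In mEx5 these were 217.3 and 210.4 CPM for control, 236.9 and 253.5 for knockdown, and 234.5 and 232.1 for induction. All 4 knockdown libraries were above all 8 others. The log2 change was 0.19 ± 0.04 on knockdown (limma, adjusted p = 0.000379) and −0.12 ± 0.04 on induction (limma, adjusted p = 0.0183, with 37.6% of genes called). The induction call was lost without the trend (adjusted p = 0.0629) and without pEx5 induced A, pEx5 knockdown B or mEx5 knockdown B (up to 0.0879). None of its 16 tested events changed by more than 1.26 points on knockdown, the change of a 51 nt exon from 99.25 to 99.78 percent in control to 97.55 to 98.73 in knockdown libraries (limma, adjusted p = 0.241).

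Rpl5 and Rpl11, the protein core of the particle, and Rrs1, the partner of Rpf2, have no intron events in the splicing table, so their levels come from the authors' deposited table, with 1 RPKM value per gene and group and no spread between libraries. Rpl5 stood at 129.75, 104.57 and 105.26 RPKM in pEx5 control, knockdown and induced groups, and at 124.01, 101.03 and 98.33 in mEx5. The authors' deposited table called the knockdown change in both lines, with log2 changes of −0.21 (FDR 0.001211) and −0.24 (FDR 0.0004152), and not the change on induction (FDR 0.3533 and 0.2029). That table called 32.7% of 18600 genes on knockdown in pEx5 and 30.7% in mEx5. The fall of Rpl5 was thus still present in both induced groups, at 81.1% and 79.3% of control.

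Rpl11 stood at 2431.51, 2328.74 and 2300.47 RPKM in pEx5 and 2359.8, 2302.11 and 2232.96 in mEx5, and the authors' deposited table called it in no comparison (FDR 0.5265 to 0.9455). Rrs1 stood at 46.22, 45.14 and 41.4 RPKM in pEx5 and 46.41, 46.84 and 42.66 in mEx5. The authors' deposited table called Rrs1 once, on induction in mEx5, with a log2 change of −0.22 (FDR 0.01768), where it called 19.9% of genes, against 19.3% on induction in pEx5. Ribosomal protein genes have many processed copies in the genome, and how reads were shared among them is not given in the sources used here, so the levels of Rpl5 and Rpl11 are uncertain.

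**Figure D4:**
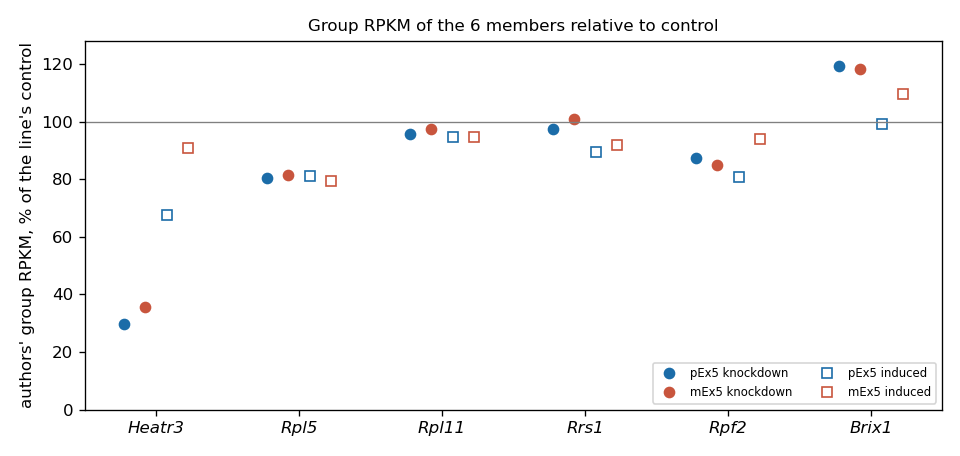
Authors' group RPKM of the 6 genes (x axis) as a percentage of the control of the same line (y axis, from 0), filled circles for knockdown and open squares for induced groups, blue for pEx5 and red for mEx5, with 1 value per group and no error. Heatr3 falls to 29.8% and 35.8% on knockdown, while the other 5 genes stay between 79.3% and 119.3%.

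For both ribosomal protein genes the reads over their best covered alternative 3′ splice site gave a value per library. For Rpl11 they were 48.4 to 54.4 CPM in control, 41.9 to 47.9 after knockdown and 40.8 to 44.5 in induced libraries, a log2 difference of −0.20 on knockdown with no overlap (exact two-sided permutation test, 4 against 4, p = 0.0286, the smallest this design allows; 0.0572 after adjustment over 4 tests). For Rpl5 this site held only 12 to 89 reads per library and is not a measure of its main transcript. Its CPM values were 0.514 to 0.987 in control and 1.25 to 2.45 in knockdown libraries, opposite in direction to the RPKM of the gene (log2 difference 1.37, exact permutation p = 0.0286, adjusted 0.0572). Neither result passed adjustment. Among tested events, the largest PSI change of Rpl5 on knockdown was 5.56 points at that site (limma, adjusted p = 0.373). That of Rpl11 was −0.74 points at an alternative 5′ site of 5 nt (limma, adjusted p = 0.592). The authors' deposited splicing table called 1 exon of Rpl11 on knockdown in mEx5 but not in pEx5. It called 3.03% of the events it judged in mEx5 and 3.63% in pEx5. In all, 58 of the 86 member events were tested, none of them in Rrs1, which has no event in the table.

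Genes of the wider assembly line changed in both directions on knockdown, and of the assembly factors called on induction most fell. The list of the 5S particle and its partners leaves out Heatr3 and Rpf2, which both fell on knockdown (−1.84 and −0.28). Among its 12 tested genes 3 rose and 2 fell on knockdown, with a median log2 change of 0.05 against 0.01 over all genes. That is 41.7% of the list called, below the 51.8% of all genes called on knockdown. They include Sdad1, a large-subunit assembly factor (0.34 ± 0.04, adjusted p = 4.05e-07), Rpl3, a large-subunit protein (0.27 ± 0.04, adjusted p = 2.21e-05), Mdn1, the giant ATPase that strips assembly factors (−0.33 ± 0.07, adjusted p = 0.000388), and Ipo9, an importin (−0.20 ± 0.03, adjusted p = 7.37e-05), all by limma. Of 51 large-subunit assembly factors 16 rose and 7 fell on knockdown (median 0.05; 45.1% called), and on induction 3 rose and 27 fell (median −0.12), where 19.1% of all genes rose and 18.6% fell. Sbds, which readies the subunit for translation, had the largest rise on knockdown (0.80 ± 0.05, limma, adjusted p = 8.4e-11), followed by the helicase Ddx55 (0.52 ± 0.06). Gnl2, a nucleolar GTPase, fell the most (−0.57 ± 0.04, limma, adjusted p = 2.2e-10), followed by Rrp1b (−0.37 ± 0.04).

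Ribosomal protein genes as a group hardly moved, within the same uncertainty over processed copies. Of 19 large-subunit genes 2 rose on knockdown (Rpl3 and Rpl41) and 0 fell, and of 12 small-subunit genes 4 rose, Rps19 and Rps21 with the largest changes (0.17 and 0.16), and 0 fell. In the authors' deposited table, with 47 and 33 of them, 2 and 2 rose in both lines and 0 fell, where 23.8% of all genes were called in both lines with the same sign. The large-subunit list leaves out Rpl5, which that table called lower in both lines (−0.21 in pEx5 and −0.24 in mEx5). Of 18 p53 pathway genes 7 rose and 1 fell on knockdown, with a median of 0.14. With both directions together that is 44.4% called, below the 51.8% of all genes, of which 26.6% rose and 25.3% fell. The called genes of the list thus mostly rose, while those of all genes were nearly balanced. By the authors' deposited values the share called lay above that of all genes. Of 22 p53 pathway genes there, 6 rose and 1 fell in both lines, which is 31.8% against 23.8%. Whether the list differs from all genes was not tested. The secreted stress factor Gdf15 (0.93 ± 0.07, limma, adjusted p = 2.6e-09) and the cell cycle inhibitor Cdkn1a (0.46 ± 0.06, limma, adjusted p = 1.73e-06) rose most. On induction Gdf15 rose further (0.24 ± 0.07, limma, adjusted p = 0.0139), in a comparison that called 37.6% of all genes. Cdkn1a was not called there (0.03 ± 0.06, limma, adjusted p = 0.733). Ckap2, a mitotic spindle gene, fell (−0.36 ± 0.04, limma, adjusted p = 1.71e-07).

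The genes whose junction reads most resembled those of Heatr3 over the 12 libraries were Prmt7, an arginine methyltransferase (Pearson r = 0.998), Dhx36, a helicase of G-quadruplexes (0.995), Ylpm1 (0.994), Memo1 (0.993) and Vps8, an endosomal tethering subunit (0.991). These correlations describe 6 groups of 2 libraries and carry no test. Like Heatr3, each of these genes had a lower mean CPM in pEx5 than in mEx5 induced libraries. Prmt7 had 211.3 against 260.3 there (264.6 and 261.9 in control), and Vps8 had 96.5 against 119.4 (116.5 and 122 in control). The lower level in pEx5 induced libraries is thus not particular to Heatr3, and these genes were picked for their likeness to it. Rpf2 (0.674) and Brix1 (−0.756) resembled Heatr3 less.

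Libraries held 22908930 to 41494994 junction reads. Of 12 neuroblastoma markers 10 reached 1 RPKM, with Nefl and Nefm near 0, and their summed RPKM was 1031 to 1304 over the groups. On knockdown 4 of 9 tested neuroblastoma markers fell, Chga (−0.78) the most, and 1 rose, Gata3 (0.97), which is 55.6% called against 51.8% of all genes. Summed RPKM was 0.74 to 4.05 for 6 fibroblast markers, 4.88 to 6.64 for 7 glial markers, of which 3 are listed at 0, and 0.44 to 0.82 for 6 immune markers. Fibroblast markers were highest in the mEx5 knockdown group (Pdgfra at 3.17 RPKM), and their part in the results was not tested.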

How the data were processed

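The members and gene lists were chosen with earlier results of these data known. Per the file headers, the authors' splicing table (vast-tools events) gives PSI in percent and, in its quality text, corrected inclusion and exclusion reads (expected counts, not whole) for each library. The deposited expression table gives group RPKM values, log2 fold changes and FDR (p-values adjusted by the authors). Salmon 0.14.1 and edgeR are named per the submitters' processing notes. A further deposited table holds the authors' group PSI score per event and their True or False calls, with no stated criterion.

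Junction counts of introns were summed per gene, scaled by the median of ratios and tested as log2 CPM (prior count 2, mean of at least 20 reads, 10363 genes) with limma 3.58.1 in R 4.3.3, with 1 coefficient for each of 6 groups. Events (167824) were tested by limma on the logit of inclusion reads (pseudocount 0.5, at least 10 reads in each of 12 libraries), called at an adjusted p under 0.05 and 10 points. Benjamini-Hochberg adjustment ran over all features. The mean-variance trend for genes, its omission for events and the removal of constant events were settled after first results were seen. Comparisons within a line and between induced lines were also added then. On simulated data the gene test recovered 40 of 50 changes of 1.25-fold and 50 of 50 of 1.5-fold. The event test recovered 0 of 50 at each of 10, 15, 20 and 30 points, and the weighted test 16, 37, 35 and 48 of 50. At 30 points, 50 of 50 had an unadjusted p under 0.05 in the event test (limma). That simulation left 167624 of 167824 events unchanged. On the real knockdown 28830 events had an unadjusted p under 0.05 (limma) and 2234 were called, so the simulated counts may not carry over. Named were all members, called events, each member's largest event, Heatr3 events of 5 points, the 5 genes most like Heatr3 and the 2 largest rises and falls per list. Replicate libraries differed beyond counting noise.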

Additional observations from a re-analysis of the deposited data

Results flagged for a closer look

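The induction effect on Rpf2 differed between the lines in junction reads, by −0.43 on the log2 scale (limma interaction, adjusted p = 0.0279). The induction effect on inclusion of Rpf2 exon 3 differed by −11.15 points, called in the weighted limma fit (adjusted p = 0.0385) and not in the unweighted one (adjusted p = 0.676). With the replicate letter as a block the weighted fit lost that call (adjusted p = 0.0579). Each call was lost when single knockdown or induced libraries were left out.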

How the results depend on the processing

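No result changed direction with a call under the alternatives run. Counts are of called members. For the induction effect between lines, 0 genes were called with stable junctions only or without the trend, against 1. For induction against knockdown, 1 gene was called without the trend, against 2. For induction against knockdown, 1 event (Heatr3 exon 12) was called with a pseudocount of 2 reads, with precision weights, with the replicate block, with both weights and block and with a trend, against 0. Heatr3 was chosen on the knockdown and induction comparisons, so its part in these counts is a description and not a test. For the induction effect between lines, 1 event (Rpf2 exon 3) was called with precision weights, against 0, and adding the replicate block to the weights brought this back to 0 (adjusted p = 0.0579). Leaving out each library gave 1 to 2 events on knockdown, 1 to 2 genes and 0 to 1 events on induction, and 0 to 1 genes for the induction effect between lines. For that effect Rpf2 exon 3 had an adjusted p under 0.05 in 0 of 12 cases in the unweighted limma fit. In the weighted limma fit it did so in 5 of 12. The replicate letters did not pair the libraries: deviations of same-lettered libraries correlated by −0.127 to 0.163 over 15 pairs of groups, 2 of them over 0.1. The block changed no other count of called members. Without the trend 5025 genes were called on knockdown against 5373. With a trend 2544 events were called, and with constant events kept 2692, against 2234. The unweighted and weighted fits called 0 and 749 events for induced against control libraries, 2234 and 4002 on knockdown, and 746 and 2647 on induction. RPKM ratios kept their sign with a pseudocount of 1 in place of 0.1, and all 6 members passed a filter of 1 RPKM. Rpl5, Rpl11 and Rrs1 could not be tested per library by junction reads, and 110 reads at the Heatr3 introns limit their precision.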
